A study of Mus musculus with 661 samples.

Results

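Heat shock proteins and J-domain cochaperones were followed through the stroma of young and old mouse bone marrow. The members were the gene symbols of the deposited count table that start with Hspa, Hspb, Hspd, Hspe or Hsph, with Hsp90, or with Dnaja, Dnajb or Dnajc, each with a number. Pseudogene symbols ending in -ps were left out. This gave 72 of 45808 gene symbols, of which 27 were Hsp genes and 45 were Dnaj genes.

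The study compared stromal cells that line the inner bone surface, the endosteum, with those of the central marrow, in young and old wild-type C57BL/6 mice. Cells were sorted by surface markers, 1 to a well, and sequenced over the full length of their transcripts. From the endosteum came Sca-1-positive mesenchymal cells (MSC-S), osteoprogenitors without PDGFRα or LepR (OPr), PDGFRα-positive osteoprogenitors without LepR (mOPr) and CD31-positive arteriolar endothelial cells with high Sca-1 (AEC). LepR-positive mesenchymal cells (MSC-L) and CD31-positive sinusoidal endothelial cells with low Sca-1 (SEC) came from marrow plugs, which were digested with collagenase for a shorter time than crushed bone, so location and digestion cannot be told apart.

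In all, 661 cells were measured, 336 young and 325 old. Young and old cells numbered 53 and 58 for MSC-L, 59 and 59 for MSC-S, 44 and 29 for OPr, 26 and 26 for mOPr, 84 and 82 for AEC and 70 and 71 for SEC. The paper reports several mice of each age for these cells. The labels do not name the mouse of a cell, so each population of each age was 1 sample with no replicate, and no test was run. Counts per cell ran from 58034 to 1503374 with a median of 425611. By group the median was 468565 and 357288 in young and old MSC-L, 608696 and 703594 in MSC-S, 695499 and 781968 in OPr, 524176 and 451630 in mOPr, 417873 and 424026 in AEC, 319565 and 306315 in SEC. Library numbers fell into 3 ranges, with 170, 303 and 188 cells. SEC came from range 3 alone, AEC from all 3 ranges and the other populations from ranges 1 and 2. The labels do not call a range a batch.

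Levels are given as CPM, counts scaled to a sum of 1000000 over the nuclear genes, from counts summed over the cells of a group. The 95% intervals are exact and cover counting error only, since the reads carry no molecular identifiers and the mice are not separated. Differences are log2 ratios of CPM after 1 CPM was added to both sides, for genes whose counts from both sides reached 100 in 5 cells or more. A gene was called between ages when it was at least 2-fold higher or lower, with the same direction in every library range that held at least 5 cells on each side. Between populations it had to pass 2-fold in both ages, and the value printed is the mean of the ages. Beside each first count of members called stands the share of all tested genes called by the same rule.

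Marker genes were read before the members. The 5 endothelial markers summed to 4722 and 4413 CPM in young and old AEC and 3894 and 4075 in SEC, against at most 44.9 in a mesenchymal group. Sinusoidal markers, led by Stab2, stood at 14791 and 11469 CPM in SEC, and arteriolar markers at 2566 and 2805 in AEC. MSC-L markers, led by Cxcl12, reached 57033 and 46839 CPM in MSC-L, MSC-S markers 1982 and 2468 in MSC-S, and osteoprogenitor markers 3479.7 and 3688 in OPr and 5272 and 9253 in mOPr. The leading markers of each label were present, though osteoprogenitor markers were higher in MSC-L than in OPr, at 11374 and 7327 CPM.

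Old OPr and old mOPr stood apart from their young counterparts. The 5 MSC-L markers, with Cxcl12 the most abundant and none at 0, summed to 5407 CPM in young and 22487 in old OPr, and to 799 and 20881 in young and old mOPr. By the cluster labels of the authors, 10 of 29 old and 3 of 44 young OPr cells belonged to the clusters that hold nearly all MSC-L (M1 and M2), and so did 14 of 26 old and 2 of 26 young mOPr cells. Cells with at least 7 blood markers at 10 CPM or more made up 8 of 29 old OPr cells and 1 of 71 old SEC cells. The 15 hematopoietic markers, led by S100a9, summed to 11470.1 CPM in old OPr with none at 0, to 139.9 once those cells were left out, and to 129 in young OPr with 1 at 0. By the methods the OPr gate excluded CD45-positive and Ter119-positive cells, so why these cells are there is unknown. Among old SEC cells, 8 of 71 lay in the AEC clusters E3 and E4, against 0 of 70 young ones, which allows a share of up to 4.29%. Of the sorted AEC cells, 50 of 84 young and 61 of 82 old ones lay in those clusters. The age values of these populations are read with those mixtures beside them.

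HSP70 proteins bind exposed stretches of unfolded polypeptides and release them in a cycle driven by ATP, J-domain proteins bring them substrates and speed up that cycle, and HSP110 proteins exchange the nucleotide. HSP90 proteins act later, on clients such as kinases and steroid receptors, while small heat shock proteins hold unfolded chains without using ATP. A cytosolic set is switched on by the factor HSF1 under heat and other proteotoxic stress, the endoplasmic reticulum (ER) keeps its own set under the unfolded protein response, and mitochondria have an HSP70 and a chaperonin.

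Of the 72 members, 33 reached 10 CPM in all 12 groups, 13 did so in none, and Dnajc5g had no count. Per kb of exon, the scale on which genes can be set side by side, Hsp90ab1, the constitutive cytosolic HSP90, was the most abundant, with a median over the groups of 392 CPM per kb. Next came Hspa5 (BiP), the HSP70 of the ER, at 285, the HSF1 target Dnajb1 at 103 and Hsp90b1, the HSP90 of the ER, at 86.7 CPM per kb. The constitutive Hspa8 followed at 59.8. Further down, with other members between them, lay the heat-inducible Hspa1a and Hspa1b at 33.6 and 33.04, the mitochondrial Hspa9 at 25.1 and the small heat shock protein Hspb1 at 23.7 CPM per kb. The members thus spanned the ER, cytosol and mitochondria, with the cytosolic HSP90 and the ER HSP70 on top. Members summed to 4326 and 4806 CPM in young and old MSC-L, 5715 and 6474 in MSC-S, 7408 and 7735 in OPr, 7117 and 6997 in mOPr, 9364 and 9839 in AEC and 5035 and 5294 in SEC. Over all ranges they were highest in AEC and lowest in MSC-L at both ages. Such rankings of groups pool the ranges, whose mix differs between populations.

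The heat-inducible members are 12 textbook targets of HSF1, namely Hspa1a, Hspa1b, Hspa8, Hsph1, Hsp90aa1, Hsp90ab1, Hspb1, Hspd1, Hspe1, Dnaja1, Dnajb1 and Dnajb4. The list holds Hsp90ab1 and Hspa8, which are also made without stress, and Hsp90ab1 was the largest part of many sums, at 575 CPM in young MSC-L and 2347 in young AEC. Their summed level was 964 and 1203 CPM in young and old MSC-L, 2362 and 2625 in MSC-S, 3892 and 4312 in OPr, 3304 and 3325 in mOPr, 5524 and 5958 in AEC and 1944 and 2107 in SEC. The median cell had 885 and 836 CPM in young and old MSC-L, 2019 and 2038 in MSC-S, 1977 and 999.9 in OPr, 3005 and 2629 in mOPr, 4344 and 4237 in AEC and 1936 and 1508 in SEC. Over all ranges AEC were the highest and MSC-L the lowest by both measures at both ages. The ranges differed, since in range 1 young OPr summed to 5589 CPM against 4137 in young AEC, and their median cell had 3823 against 3758. The median cell of old OPr in range 1, at 596 CPM, was below that of old MSC-L, at 813, and in range 2 old OPr summed to 6340.1 CPM against 6294 in old AEC. Without Hsp90ab1 and Hspa8, an alternative added after the data were seen, the sums were 278 and 576 CPM in young and old MSC-L, 917 and 1139.5 in MSC-S, 2596 and 2605 in OPr, 1604 and 1778 in mOPr, 2769.6 and 3303 in AEC and 532 and 737 in SEC. In old OPr the sum was 4312 CPM while the median cell had 999.9, so that a few cells held much of it. Without the cells that carried blood markers the old OPr sum was 3537 CPM.

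**Figure D1:**
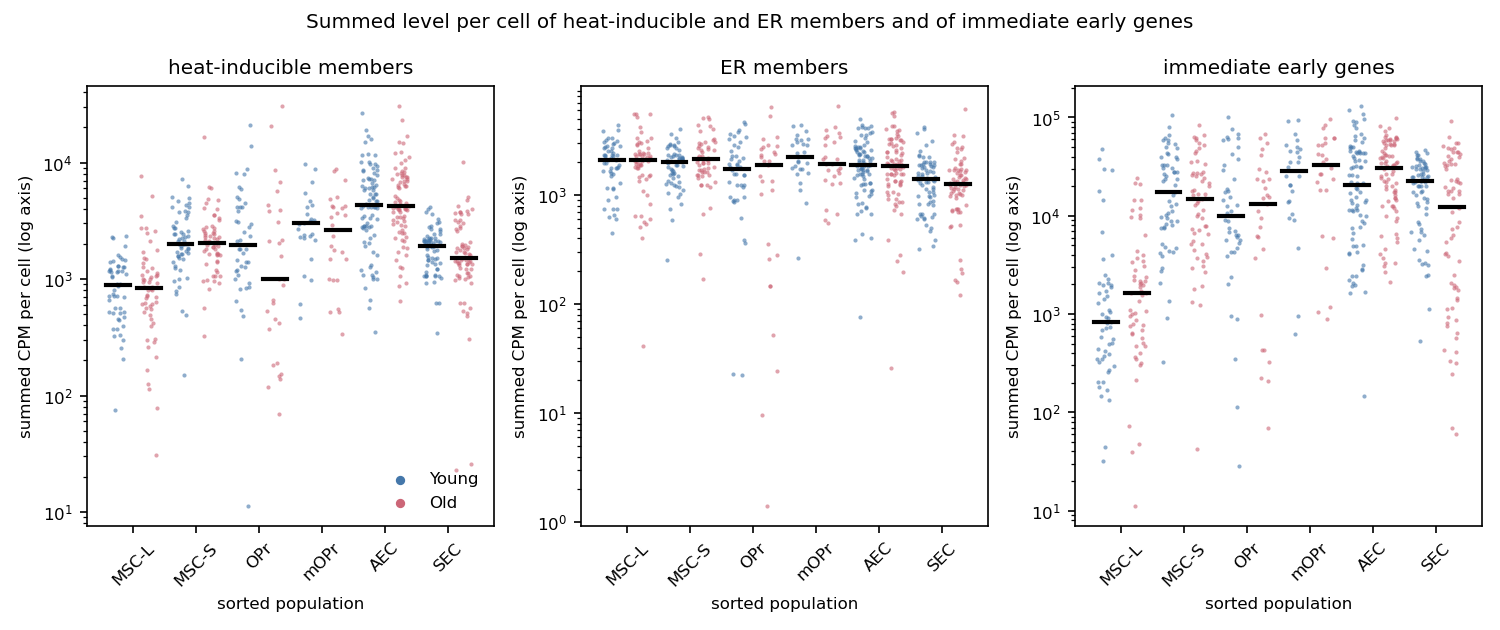
Summed CPM per cell (log axis; cells at 0 are not drawn) of the heat-inducible members, the ER members and the immediate early genes, for young and old cells of the 6 populations; black lines are medians over cells. Heat-inducible medians lie between 836 CPM in old MSC-L and 4344 CPM in young AEC.

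The stress-inducible HSP70 genes ranged widely. Hspa1a stood at 0.526 and 5.33 CPM in young and old MSC-L, 33.7 and 77.6 in MSC-S, 87.2 and 265 in OPr, 113 and 122 in mOPr, 405 and 594 in AEC and 40.6 and 130.4 in SEC. Hspa1b stood at 6.66 and 30.8 CPM in young and old MSC-L, 43.1 and 169 in MSC-S, 92.97 and 308 in OPr, 223 and 58.1 in mOPr, 529 and 831 in AEC and 36.3 and 92.3 in SEC. These genes lie 9951 bases apart on chromosome 17 and their messages are nearly identical, and the authors' alignment dropped reads with several matches, so how counts were split between them is uncertain. After each cell was thinned to 100000 counts, which left out the 7 cells with fewer, Hspa1a was detected in 74.7% (95% interval 63.96 to 83.6) of young and 82.9% (95% interval 73.02 to 90.3) of old AEC cells, against 3.77% (95% interval 0.460 to 12.98) and 10.7% (95% interval 4.03 to 21.9) of MSC-L cells. In old MSC-S a single cell held 59.6% of the Hspa1a and 65.7% of the Hspa1b counts, and in old OPr a single cell held 52.4% and 52.7%.

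Hsph1, the inducible HSP110, was present at 14.2 and 31.7 CPM in young and old MSC-L, 75.2 and 164 in MSC-S, 107 and 256 in OPr, 159 and 114 in mOPr, 315 and 357 in AEC and 50.3 and 25.9 in SEC. Hspa8, the constitutive HSP70 of the cytosol, was present at 110.5 and 125 CPM in young and old MSC-L, 277 and 225 in MSC-S, 237 and 323 in OPr, 310.1 and 414 in mOPr, 407 and 446 in AEC and 227 and 221 in SEC. Both had their lowest level in young MSC-L and their highest in old AEC. Hspa4, a constitutive HSP110, had 81.4 and 87.3 CPM in young and old MSC-L, 82.6 and 86.6 in MSC-S, 64.4 and 146 in OPr, 56.9 and 57.03 in mOPr, 126 and 113 in AEC and 104 and 115 in SEC. Its relative Hspa4l had 0.307 and 4.92 CPM in young and old MSC-L, 20.8 and 28.1 in MSC-S, 8.59 and 4.96 in OPr, 38.8 and 26.2 in mOPr, 20.97 and 8.72 in AEC and 0.319 and 14.6 in SEC. Hspa2, best known from the germ line, stood at 0.438 and 4.10 CPM in young and old MSC-L, 26.2 and 35.2 in MSC-S, 63.4 and 13.1 in OPr, 156 and 46.2 in mOPr, 119.9 and 86.1 in AEC and 22.2 and 30.6 in SEC. It was under 5 CPM in MSC-L alone.

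The distant HSP70 relatives followed cell type. Hspa12b, known from endothelium, stood at 2.81 and 10.9 CPM in young and old MSC-L, 1.94 and 2.22 in MSC-S, 0.0341 and 0.0935 in OPr, 4.39 and 0.881 in mOPr, 107 and 142 in AEC and 21.4 and 87.7 in SEC. Hspa12a had 11.97 and 3.80 CPM in young and old MSC-L, 19.9 and 17.1 in MSC-S, 9.20 and 4.40 in OPr, 19.3 and 31.5 in mOPr, 0.775 and 0.573 in AEC and 3.10 and 7.33 in SEC. The endothelial groups held the highest Hspa12b levels and AEC the lowest Hspa12a levels. Hspa14, a ribosome-associated HSP70, was present at 62.97 and 70.9 CPM in young and old MSC-L, 26.8 and 31.5 in MSC-S, 34.2 and 26.4 in OPr, 31.6 and 26.1 in mOPr, 57.7 and 43.9 in AEC and 57.96 and 80.7 in SEC.

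Cytosolic HSP90 was carried by Hsp90ab1, with 575 and 502 CPM in young and old MSC-L, 1167 and 1261 in MSC-S, 1059 and 1385 in OPr, 1389.8 and 1133 in mOPr, 2347 and 2209 in AEC and 1184 and 1149.5 in SEC. The inducible Hsp90aa1, at 23.1 CPM per kb over the groups, stood at 20.9 and 67.3 CPM in young and old MSC-L, 94.9 and 86.7 in MSC-S, 176 and 80.97 in OPr, 138 and 246 in mOPr, 184 and 179.96 in AEC and 42.9 and 51.4 in SEC. The former was lowest in MSC-L at both ages. Among the HSF1 targets of the J-domain family, Dnajb1, a partner of inducible HSP70, stood at 75.1 and 136 CPM in young and old MSC-L, 338 and 321 in MSC-S, 1669.9 and 1286 in OPr, 527 and 308 in mOPr, 586 and 554 in AEC and 152 and 201 in SEC. It was highest in OPr, where 28.4% of the young and 46.9% of the old counts came from 1 cell. In range 1, however, old OPr had 0.928 CPM of it, against 2154 in range 2. Dnaja1 stood at 63.2 and 136 CPM in young and old MSC-L, 157 and 139.6 in MSC-S, 295 and 262 in OPr, 314 and 674 in mOPr, 478 and 476 in AEC and 114 and 129 in SEC. Dnajb4 stood at 65.99 and 119 CPM in young and old MSC-L, 104 and 109.95 in MSC-S, 108 and 78.3 in OPr, 80.6 and 162 in mOPr, 103 and 118 in AEC and 37.2 and 35.4 in SEC. It was lowest in SEC.

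Small heat shock proteins marked different cells. Hspb1 (HSP25) stood at 3.99 and 6.51 CPM in young and old MSC-L, 24.9 and 23.97 in MSC-S, 25.6 and 20.9 in OPr, 17.3 and 29.4 in mOPr, 122 and 117 in AEC and 21.2 and 44.7 in SEC. Hspb8 stood at 4.08 and 0.256 CPM in young and old MSC-L, 335 and 328 in MSC-S, 31.4 and 9.87 in OPr, 78.2 and 10.9 in mOPr, 27.97 and 14.3 in AEC and 3.74 and 7.67 in SEC. The first was highest in AEC and the second in MSC-S. Hspb6 was present at 23.6 and 3.59 CPM in young and old MSC-L, 43.6 and 34.3 in MSC-S, 40.7 and 18.7 in OPr, 12.8 and 10.5 in mOPr, 22.4 and 15.1 in AEC and 4.88 and 3.62 in SEC. Hspb7 stood at 0.132 and 14.5 CPM in young and old MSC-L, 23.2 and 7.30 in MSC-S, 1.94 and 0.281 in OPr, 16.2 and 0.160 in mOPr, 4.02 and 3.41 in AEC and 0 and 0 in SEC, and Hspb2 at 0 and 0 CPM in young and old MSC-L, 0.897 and 14.7 in MSC-S, 3.00 and 0.140 in OPr, 5.90 and 18.7 in mOPr, 3.90 and 0.487 in AEC and 0 and 8.64 in SEC. Hspb8 among mesenchymal cells and Hspb2 and Hspa1b among endothelial cells are guide genes of the authors' clusters, so cluster identity is not independent of them. Hspb11, which despite its name belongs to the intraflagellar transport machinery, stood at 10.8 and 7.18 CPM in young and old MSC-L, 4.95 and 9.95 in MSC-S, 4.06 and 9.03 in OPr, 23.3 and 0.0801 in mOPr, 3.84 and 3.90 in AEC and 2.14 and 3.43 in SEC.

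ER members varied little in sum. The 10 of them came to 2144 and 2236 CPM in young and old MSC-L, 1908 and 2368 in MSC-S, 2246 and 2101 in OPr, 2380.3 and 2228 in mOPr, 2135 and 2127 in AEC and 1498 and 1473 in SEC. Hspa5 stood at 738 and 820.4 CPM in young and old MSC-L, 950.2 and 1242 in MSC-S, 1231 and 1281 in OPr, 1203 and 1260.3 in mOPr, 1206 and 1305 in AEC and 627 and 653 in SEC. Both the sum and Hspa5 were lowest in SEC. Hsp90b1 (GRP94) was present at 519.8 and 511 CPM in young and old MSC-L, 363 and 433 in MSC-S, 411 and 283 in OPr, 477 and 293 in mOPr, 318 and 292 in AEC and 329 and 337 in SEC. Its lowest level was in old OPr and its highest in young MSC-L.

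The other named ER members were cochaperones and a distant HSP70. Dnajb11, the BiP cochaperone ERdj3, stood at 131 and 103 CPM in young and old MSC-L, 121 and 99.7 in MSC-S, 87.7 and 22.3 in OPr, 107 and 65.8 in mOPr, 96.3 and 90.98 in AEC and 77.5 and 60.7 in SEC. Hspa13 (STCH) had 89.01 and 100.3 CPM in young and old MSC-L, 42.3 and 50.996 in MSC-S, 33.2 and 94.02 in OPr, 40.2 and 53.3 in mOPr, 44.4 and 29.9 in AEC and 58.1 and 68.998 in SEC. Dnajb9 (ERdj4), which acts on the sensor IRE1, stood at 33.7 and 50.6 CPM in young and old MSC-L, 63.3 and 76.01 in MSC-S, 53.2 and 44.4 in OPr, 147 and 47.7 in mOPr, 103 and 72.8 in AEC and 33.4 and 19.3 in SEC. None of these was absent from a group. Dnajc1 had 161 and 119.8 CPM in young and old MSC-L, 60.4 and 85.9 in MSC-S, 122 and 128 in OPr, 74.7 and 110.2 in mOPr, 73.6 and 64.2 in AEC and 84.1 and 88.5 in SEC, and the membrane protein Dnajb12 49.99 and 45.6 CPM in young and old MSC-L, 20.6 and 23.5 in MSC-S, 30.04 and 15.2 in OPr, 15.6 and 31.9 in mOPr, 39.1 and 22.5 in AEC and 28.1 and 12.2 in SEC. The latter's relative Dnajb14 stood at 43.7 and 101 CPM in young and old MSC-L, 39.97 and 21.7 in MSC-S, 39.4 and 21.9 in OPr, 68.1 and 23.3 in mOPr, 24.7 and 28.8 in AEC and 30.7 and 28.1 in SEC.

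The 9 mitochondrial members summed to 249 and 297 CPM in young and old MSC-L, 313 and 277 in MSC-S, 262 and 195 in OPr, 375 and 337 in mOPr, 349.8 and 381 in AEC and 309 and 248 in SEC. Hspa9 (mortalin), their HSP70, had 73.2 and 102 CPM in young and old MSC-L, 113 and 117 in MSC-S, 94.5 and 74.8 in OPr, 149.8 and 173 in mOPr, 172 and 181 in AEC and 104 and 87.1 in SEC. Hspd1 and Hspe1, the chaperonin HSP60 and its lid HSP10, stood at 14.8 and 28.2 CPM in young and old MSC-L, 33.2 and 28.6 in MSC-S, 21.2 and 25.8 in OPr, 18.2 and 45.3 in mOPr, 32.3 and 49.7 in AEC and 27.3 and 17.5 in SEC, and at 12.8 and 15.6 CPM in young and old MSC-L, 12.96 and 18.8 in MSC-S, 13.1 and 20.9 in OPr, 13.5 and 18.98 in mOPr, 15.95 and 26.3 in AEC and 9.94 and 9.55 in SEC. Per kb the medians over the groups were 25.1 for Hspa9, 10.5 for Hspd1 and 9.87 CPM for Hspe1. The chaperonin genes are neighbours on chromosome 1 (Hspd1 chr1:55077835-55088243 on the minus strand and Hspe1 chr1:55088132-55091307 on the plus strand, by GENCODE M21), overlap at their starts, and have processed pseudogenes, and since reads were counted without strand their levels are uncertain. Dnaja3 (Tid1) stood at 20.6 and 35.5 CPM in young and old MSC-L, 49.3 and 21.2 in MSC-S, 26.3 and 8.70 in OPr, 37.4 and 22.7 in mOPr, 36.9 and 35.8 in AEC and 25.2 and 50.9 in SEC. Dnajc11, of the inner membrane organizing complex, stood at 71.5 and 64.6 CPM in young and old MSC-L, 43.1 and 44.7 in MSC-S, 62.3 and 16.6 in OPr, 105 and 11.1 in mOPr, 43.8 and 41.1 in AEC and 68.3 and 33.1 in SEC, and Dnajc15, of the import motor, at 6.62 and 9.49 CPM in young and old MSC-L, 16.6 and 12.7 in MSC-S, 13.2 and 3.09 in OPr, 16.2 and 18.9 in mOPr, 11.6 and 13.8 in AEC and 41.95 and 19.4 in SEC. These J-domain genes varied more between groups than Hspa9 did.

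Other J-domain members named here reached at least 2-fold in 1 or more comparisons. Dnajc7, which links HSP70 to HSP90, stood at 90.9 and 95.1 CPM in young and old MSC-L, 45.5 and 74.4 in MSC-S, 53.1 and 86.1 in OPr, 54.8 and 157 in mOPr, 89.995 and 129 in AEC and 112 and 121 in SEC. Dnajc16 stood at 50.3 and 45.8 CPM in young and old MSC-L, 10.3 and 10.01 in MSC-S, 33.002 and 35.8 in OPr, 3.29 and 27.3 in mOPr, 22.7 and 14.3 in AEC and 28.3 and 68.1 in SEC. Dnajc2, a ribosome-associated factor, had 23.5 and 19.2 CPM in young and old MSC-L, 4.77 and 8.42 in MSC-S, 27.2 and 20.8 in OPr, 8.84 and 2.32 in mOPr, 15.7 and 15.2 in AEC and 13.9 and 11.5 in SEC. All of these were detected in every group. Dnajb5 stood at 7.85 and 15.2 CPM in young and old MSC-L, 3.07 and 11.1 in MSC-S, 19.3 and 21.6 in OPr, 1.37 and 12.8 in mOPr, 10.4 and 39.4 in AEC and 30.3 and 22.4 in SEC. Dnajc14 had 31.7 and 60.5 CPM in young and old MSC-L, 29.95 and 39.995 in MSC-S, 17.6 and 21.8 in OPr, 34.1 and 70.96 in mOPr, 42.3 and 51.96 in AEC and 86.2 and 81.98 in SEC, and Dnajc9, a histone chaperone, 8.29 and 21.8 CPM in young and old MSC-L, 40.2 and 19.8 in MSC-S, 40.4 and 27.9 in OPr, 17.2 and 12.3 in mOPr, 23.3 and 24.6 in AEC and 16.6 and 27.99 in SEC. Their order among the groups differed from gene to gene. Dnajc27, a small GTPase with a J-domain, stood at 7.06 and 3.08 CPM in young and old MSC-L, 0.666 and 6.71 in MSC-S, 9.07 and 26.2 in OPr, 21.4 and 0.240 in mOPr, 11.7 and 10.5 in AEC and 18.8 and 14.3 in SEC. Dnaja4 had 2.67 and 3.44 CPM in young and old MSC-L, 13.6 and 8.04 in MSC-S, 16.6 and 46.1 in OPr, 35.6 and 39.1 in mOPr, 21.9 and 9.32 in AEC and 14.8 and 21.95 in SEC, and Dnajc24, of the diphthamide pathway, 31.5 and 20.7 CPM in young and old MSC-L, 11.7 and 12.4 in MSC-S, 5.49 and 51.2 in OPr, 3.22 and 4.41 in mOPr, 13.1 and 11.4 in AEC and 23.6 and 14.4 in SEC.

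A few named members stayed under 15 CPM in every group. Dnajc6 (auxilin), which strips clathrin from vesicles, stood at 0.702 and 0.308 CPM in young and old MSC-L, 0.116 and 0.0255 in MSC-S, 9.68 and 2.85 in OPr, 6.86 and 0.0801 in mOPr, 0.143 and 0.172 in AEC and 0.137 and 0.676 in SEC. Dnajc17 had 1.93 and 8.51 CPM in young and old MSC-L, 3.18 and 3.68 in MSC-S, 0.409 and 4.54 in OPr, 0.823 and 4.08 in mOPr, 7.52 and 2.64 in AEC and 4.42 and 4.29 in SEC. Dnajc12 had 13.7 and 4.00 CPM in young and old MSC-L, 0.695 and 1.94 in MSC-S, 5.18 and 5.57 in OPr, 0.480 and 0.641 in mOPr, 7.63 and 1.84 in AEC and 0.410 and 1.83 in SEC. Each was highest in a different group. Dnajc22 stood at 0 and 0 CPM in young and old MSC-L, 0 and 0 in MSC-S, 4.50 and 4.12 in OPr, 0 and 0 in mOPr, 0 and 0.0573 in AEC and 0 and 0 in SEC, and Dnajb13 at 0 and 0 CPM in young and old MSC-L, 0 and 0.0510 in MSC-S, 0.511 and 0.515 in OPr, 0 and 0.801 in mOPr, 3.56 and 0.803 in AEC and 2.28 and 1.06 in SEC.

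The first comparison set the mesenchymal cells of the marrow, MSC-L, against those of the endosteum, MSC-S, to ask how the chaperones differ between niches. Of the 12 HSF1 targets, Hspa1a, Hspa1b, Hsph1, Dnajb1, Hspb1 and Hsp90ab1 were called lower in MSC-L. Hspb8 stood at 4.08 and 0.256 CPM in young and old MSC-L and at 335 and 328 in MSC-S. None of the 10 members on the ER list was called. Dnajc16, which was called higher in MSC-L, is not on that list. Of 62 members tested, 10 were called lower, against 9.44% of all genes, and 3 higher, against 17.7%. The lower share of members was above that of all genes and the higher share below it.

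Hspa1a was lower in MSC-L at log2 -4.07, or 64.02 (36.5 to 124)-fold in young and 14.6 (11.97 to 17.9)-fold in old cells, and at -1.21, no longer called, when cells were grouped by cluster identity. Hspa1b was lower at -2.47, Hsph1 at -2.33, Hspb1 at -2.05, Dnajb1 at -1.69 and Hsp90ab1 at -1.17. For Hsph1 the gap was 5.30 (4.72 to 5.96)-fold in young and 5.15 (4.75 to 5.61)-fold in old cells. Outside the HSF1 targets, Hspb8 was lower at -7.04, Hspa2 at -3.53, Hspa4l at -3.18 and Dnaja4 at -1.51. Dnajc16 was higher in MSC-L at 2.14, Dnajc2 at 1.59 and Hspa14 at 1.18. The last of these was at 0.81 with size factors, 0.52 in range 2 and 0.77 by cluster identity, and Dnajc2, at 1.25, 1.40 and 1.23, was no longer called there either. Dnajc16 was no longer called in range 1 alone, at 1.82.

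The median over all members tested was -0.18 and over the heat-inducible ones -1.21, with 6 of 12 called lower and all 12 below 0, against 0.35 over all genes tested. The ER median was 0.41 and the mitochondrial one -0.25, with none called in either list. Median-of-ratios size factors moved the all-gene median from 0.35 to 0.02, the heat-inducible median to -1.58 and the ER median to 0.04, and the split of members from 3 higher and 10 lower to 1 and 14. Of all genes, 12.7% were then called higher and 12.8% lower. Within library range 1 the heat-inducible median was -2.55 and within range 2 it was -0.91, with 12 of 12 below 0 in both.

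Immediate early genes, which respond to the handling of cells as well as to signals, were also lower in MSC-L. The 20 of them, led by Fos in every group, summed to 4715 and 3815 CPM in young and old MSC-L, 24183 and 20673 in MSC-S, 24894 and 21784 in OPr, 33726 and 37192 in mOPr, 31569 and 33581 in AEC and 20668 and 20875 in SEC, and 1 of them was at 0 in old MSC-L. Between MSC-L and MSC-S, 16 of 20 were called lower, with a median of -2.36 and all below 0. Their part in the difference of the heat-inducible members was not tested.

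Cells of MSC-L identity by cluster (M1 and M2) came from both kinds of preparation, a split chosen after the values were seen. Sorted as MSC-L from marrow, 51 young cells had heat-inducible members at 951 CPM (95% interval 938 to 964) and 56 old cells at 1205 CPM (95% interval 1189.6 to 1221). Sorted from old endosteum, 10 OPr-gated cells had 2494 CPM (95% interval 2462 to 2526) and 14 mOPr-gated cells 3125 CPM (95% interval 3082 to 3168). Old cells of the same clusters thus had higher heat-inducible sums when they came from bone than when they came from marrow. Immediate early genes summed to 3729.9 and 3844 CPM in young and old marrow cells, and to 25326 and 33607 in the endosteal sorts. ER members hardly moved, at 2195, 2279, 2376 and 2328 CPM in the same order. Much of the gap in the heat-inducible sums lay in Hsp90ab1, at 509 CPM in old marrow cells against 1339.6 and 949 in the OPr and mOPr gates, in Dnaja1, at 139 against 373 and 945, and in Hspa8, at 127 against 394 and 406. Without Hsp90ab1 and Hspa8 the sums were 568, 760.4 and 1769 CPM. The median cell had 836 CPM of the whole list in old marrow cells against 2111 and 1751, and 328 against 644 and 732 without Hsp90ab1 and Hspa8. Single members differed, since Hspa1a stood at 5.47 CPM in old marrow cells against 47.7 and 49.1 in the endosteal sorts, while Dnajb1 stood at 123 against 93.3 and 116, Hspa1b at 31.6 against 31.7 and 55.8, Hsph1 at 32.5 against 35.3 and 50.96, and Hspb1 at 6.68 against 5.83 and 47.8. The sorting gate, the location and the digestion of these cells cannot be told apart.

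Marrow and endosteal endothelium were compared within library range 3, the only range with both. Of the 12 HSF1 targets, 8 were called lower in SEC than in AEC. Between MSC-L and MSC-S it was 6, not all of them the same genes, and the likeness was not tested. Hsph1, Hspa1a, Hspa1b, Dnaja1 and Dnajb1 were the HSF1 targets furthest apart, and Dnajc15 and Dnajc1 were higher in SEC. Of 59 members tested, 11 were called lower in SEC, against 7.3% of all genes, and 2 higher, against 11.9%. Without the top cells of each gene the split was 6 higher and 12 lower, against 20.04% and 4.54% of all genes. By cluster identity it was 5 higher and 8 lower, against 17.1% and 8.01% of all genes. The AEC side held 47 cells by sort and 26 by cluster identity, the latter with the 8 old SEC cells of the AEC clusters.

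Hsph1 was lower at -2.99, or 7.66 (7.13 to 8.23)-fold in young and 8.62 (7.80 to 9.54)-fold in old cells. Hspa1b was lower at -2.54, Hspa1a at -2.43, Dnaja1 at -2.11, Dnajb1 at -2.10, Hsp90aa1 at -1.71, Hspb1 at -1.53 and Dnajb4 at -1.47. The gap in Hspa1a was 10.4 (9.60 to 11.2)-fold in young and 2.88 (2.72 to 3.04)-fold in old cells. In the SEC cluster E7 it stood at 39.7 CPM in young and 43.7 in old cells, and in the 8 old SEC cells of the AEC clusters at 622. Hspb6 was lower at -2.41, but at 0.55 when cells were grouped by cluster identity. Hspa2 was lower at -2.03 and Dnajb9 at -1.66. Dnajc15 was higher at 3.24, or 9.36 (6.47 to 14.1)-fold in young and 24.7 (10.5 to 76.5)-fold in old cells, with 1.78 by cluster identity. Dnajc1 was higher at 1.48.

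Members had a median of -0.03, which turned to 0.22 without the top cells and 0.09 by cluster identity, and the heat-inducible ones of -1.62, with 8 of 12 called lower and none above 0, against 0.19 over all genes. ER members had a median of 0.21. Of the immediate early genes, 5 of 20 were called lower, with a median of -0.95. Digestion, location and endothelial type cannot be told apart here.

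AEC and MSC-S, both from the endosteum, were compared in ranges 1 and 2. The endothelial cells had more Hspa1a, Hspa1b, Hspb1, Dnaja1 and Hsph1, and they had the endothelial Hspa12b, while MSC-S had Hspb8 and Hspa12a. Of 62 members tested, 11 were called higher, against 15.8% of all genes, and 3 lower, against 10.7%. The shares of members lay close to the background on the higher side and below it on the lower side.

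Hspa12b was higher in AEC at 5.17, or 45.2 (35.5 to 58.5)-fold in young and 61.7 (49.9 to 77.2)-fold in old cells. Hspa1a was higher at 3.29, Hspa1b at 3.08, Hspb1 at 2.32, Hspa2 at 1.67, Dnaja1 at 1.62 and Hsph1 at 1.60. Hspa2 was no longer called with size factors, at 1.36, in range 1, at 0.99, or by cluster identity, at 0.89. The remaining 4 called higher were J-domain genes between 1.21 and 1.60, of which 1 was under 2-fold without its top cells, at 0.58. MSC-S had more Hspb8, at -3.92, Hspa12a, at -3.91, and Hspb6, at -1.18, the last of which turned to 0.22 in range 1 alone.

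Across members the median was 0.38, and for the heat-inducible ones it was 0.99, with 5 of 12 called higher and all 12 above 0, against 0.26 over all genes. Size factors moved the all-gene median to -0.01 and the heat-inducible one to 0.68, and the split of members from 11 higher and 3 lower to 7 and 4. Of all genes, 12.2% were then called higher and 13.2% lower. ER members had a median of 0.00, or -0.31 with size factors, and none was called. Immediate early genes had a median of 0.74 with 4 of 20 called higher, or 1 with size factors. Their part was not tested.

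OPr and MSC-S are mesenchymal and both from the endosteum, and were digested in the same way. OPr had more Dnajb1 and several rare J-domain genes, and less of the small heat shock proteins Hspb8 and Hspb7. Of the 29 old OPr cells, 10 lay in clusters M1 and M2 and 8 carried blood markers, and these cells are part of the values here. Of the 12 heat-inducible members, Dnajb1 and Hspa1a were called higher. Of 64 members tested, 8 were called higher, against 8.9% of all genes, and 5 lower, against 6.01%, each near its background. By cluster identity the split was 4 higher and 2 lower, against 6.62% and 6.09% of all genes.

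Hspb8 was lower in OPr at -4.15, or 10.7 (9.98 to 11.4)-fold in young and 33.3 (29.03 to 38.3)-fold in old cells. Hspb7 was lower at -2.87, but at -1.60, no longer called, in range 1 alone. Hspa4l was lower at -1.74, but at -0.85 by cluster identity. Hspa12b was lower at -1.53, but at -0.67 without its top cells, and Hspa12a was lower at -1.39, but at 0.36 by cluster identity. Dnajb1 was higher at 2.15, yet in range 1 alone the value was -2.15. Dnajc6 was higher at 2.58, or 1.13 and no longer called without its top cells. Further members higher in OPr were Dnajc27 at 2.21, Dnajc2 at 1.75, Dnajc16 at 1.67 and Hspa1a at 1.55. By cluster identity Dnajc27 was at 1.40, no longer called, and Dnajc2 at 0.90. In range 1 Hspa1a stood at 24.8 CPM in old OPr against 55.2 in old MSC-S, the other direction. For Dnajc22, with no count in MSC-S, OPr were at least 51.8-fold higher in young and at least 53.8-fold higher in old cells, taking 3 counts over the MSC-S group as the floor, but without its top cells it was no longer called, at 1.04. Dnajc12 was higher at 1.51, or 0.64 without its top cells.

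Members had a median of 0.06, which turned to -0.26 without the top cells, and the heat-inducible ones of 0.27, against 0.13 over all genes, the last of which size factors moved to 0.01. With size factors the heat-inducible median was 0.14. Without the top cells the heat-inducible median turned to -0.02 and the all-gene median to -0.12. ER members had a median of -0.13, and 1 of 20 immediate early genes was called higher, with a median of 0.13.

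**Figure D2:**
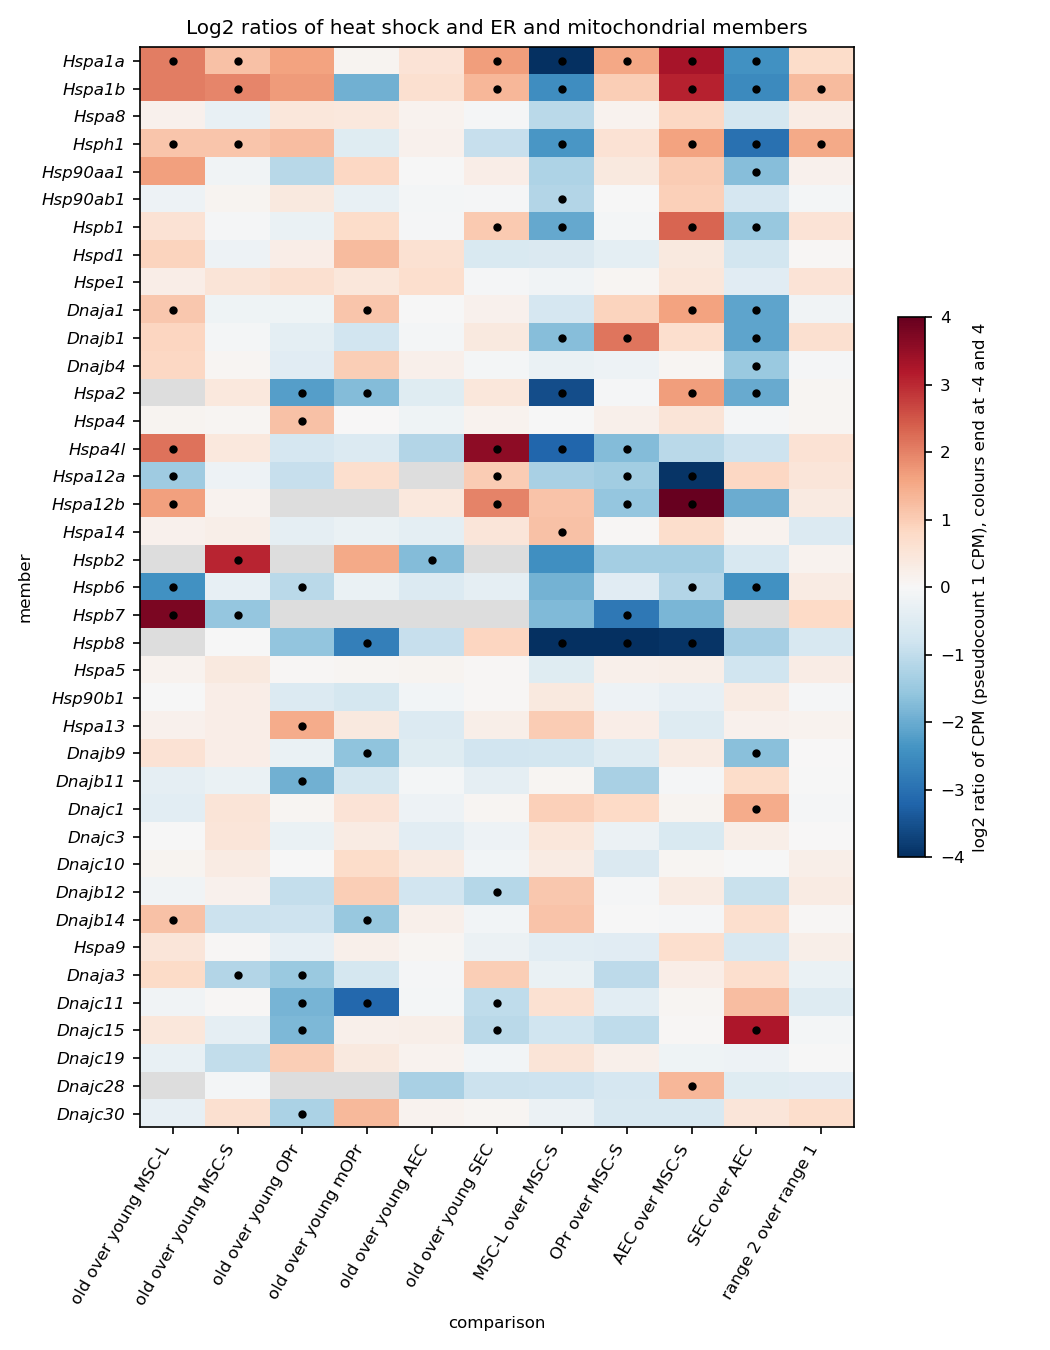
Log2 ratios of 39 members (lines) in 11 comparisons (columns), with colours that end at -4 and 4, a dot where the member was called, and grey where both sides together had fewer than 100 counts. The 12 heat-inducible members are all below 0 in MSC-L over MSC-S and in SEC over AEC and all above 0 in AEC over MSC-S.

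Age was compared within each population. In MSC-L, several rare cytosolic members were higher in old cells, among them Hspa4l, Hspa1a and Hsph1 of the HSP70 and HSP110 group, and Hspb6 was lower. Of 57 members tested, 10 were called higher, against 10.6% of all genes, and 3 lower, against 8.72%. The levels stayed low, with Hspa1a at 0.526 CPM in young and 5.33 in old cells.

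Hspa4l was higher at log2 2.18, a ratio of 16.04 (7.49 to 40.97). It lost its call in range 1 alone, at 1.21, in range 2 alone, at 2.42, and after thinning, at 2.12. Hspa1a was higher at 2.05, a ratio of 10.1 (5.56 to 20.3), but at 0.09 when cells were grouped by cluster identity, and no longer called without its top cells, at 1.50. Hsph1 was higher at 1.11, Hspa12b at 1.65, Dnajc17 at 1.70, Dnajc9 at 1.30 and Dnajb14 at 1.19. Of these, Hspa12b stood at 0.19 in range 2 and 1.09, no longer called, by cluster identity, and Dnajc17 at 0.79 in range 1. Hspa1a in range 1 was at 0.37. Hsph1 and Dnajc9 were under 2-fold in range 1. There Hsph1 stood at 6.96 CPM in young and 12.8 in old cells, against 18.3 and 42.1 in range 2. Dnajc9 stood at 22.9 and 36.7 CPM in range 1, against 0.0684 and 13.8 in range 2. Hspb7 was higher at 3.78, but 1 cell held 93.99% of its counts and without the top cells the value was 0.79. Dnaja1 went from 1.09 to 0.87, and another J-domain member from 1.10 to 0.99. In range 1 Dnaja1 stood at 55.4 CPM in young and 56.3 in old cells, against 67.6 and 179 in range 2. Hspb6 was lower at -2.42, but at -0.94 in range 1 and -0.89 by cluster identity, and Dnajc12 at -1.55. Hspa12a was lower at -1.44, but at -0.35 without its top cells and 0.18 by cluster identity.

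Over members the median was 0.17 and over the heat-inducible ones 0.87, with 3 of 12 called higher and 11 above 0, against 0.01 over all genes, while the median cell had 885 CPM of these members in young and 836 in old MSC-L. Within range 1 it was 0.20 and within range 2 0.92. HSP70 and HSP110 members had a median of 1.11, but 0.68 in range 1 and 0.44 in range 2. ER members had 0.04, which size factors turned to -0.05, with -0.32 and 0.33 in the ranges, and mitochondrial members 0.37, with 0.52 and 0.07. Immediate early genes had a median of -0.49 over the 18 tested, but 0.10 in range 1 and -0.72 in range 2, with 3 called lower and sums of 4715 and 3815 CPM, although the median cell had 826 CPM of them in young and 1636 in old MSC-L.

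In MSC-S the age values of the inducible HSP70 genes rested on single cells. Of 61 members tested, 6 were called higher in old cells, against 6.41% of all genes, and 2 lower, against 8.18%. Hspa1b was higher at 1.95, Hspa1a at 1.18 and Hsph1 at 1.11, but without the top cells the values were 0.71, 0.15 and 0.22. The number called higher was then 1, against 6.16% of all genes. Dnajc27 was higher at 2.21, a ratio of 10.1 (6.58 to 16.2), and at 1.99 without its top cells, where it was no longer called. It also lost its call by cluster identity, at 1.11, and in range 1 alone, at 1.62. Hspb2 was higher at 3.04, but at 0.06 by cluster identity, and Dnajb5 at 1.58, but at 0.32 in range 2, and no longer called without its top cells, at 1.51. Hspb7 was lower at -1.54, or -4.15 in range 1, and Dnaja3 at -1.18, but at -0.47 in range 2. Members had a median of 0.09 and the heat-inducible ones of 0.02, against -0.06 over all genes, and with size factors the last pair were 0.12 and 0.04. Without the top cells the heat-inducible median was -0.06. ER members had a median of 0.26 with none called, and none of 20 immediate early genes was called.

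In OPr, old cells had less of the mitochondrial J-domain genes Dnajc11, Dnajc15 and Dnaja3 and of Hspa2 and Dnajb11, and more Dnajc24, Hspa13, Dnajc27 and Hspa4. Of 59 members tested, 5 were called higher, against 18.5% of all genes, and 7 lower, against 16.5%. Without the top cells the split was 2 higher and 13 lower, against 13.1% and 21.4% of all genes, and without M1 and M2 cells 2 higher and 12 lower, against 11.5% and 28.4%. Size factors moved the all-gene median from 0.14 to -0.01 and the split of members from 5 higher and 7 lower to 5 and 11. Of all genes, 16.2% were then called higher and 18.9% lower.

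Hspa2 was lower at -2.19, 4.84 (4.27 to 5.51)-fold, Dnajb11 at -1.93, but at -0.88 by cluster identity, and Dnajc15 at -1.80. Dnajc11 was lower at -1.85, but at -0.43 after cells of M1 and M2 were left out and -0.82 by cluster identity, and Dnaja3 at -1.49, but at -0.33 by cluster identity, -0.90 without M1 and M2 cells and at -2.03, no longer called, without its top cells. The other 2 members lower in old OPr stood at -1.26 and -1.08. Dnajc24 was higher at 3.01, but at 1.45, no longer called, without its top cells and 1.03 without the cells with blood markers, and 0.50 in range 2. Hspa13 was higher at 1.47, but at -1.13 without M1 and M2 cells and -0.90 by cluster identity. Dnajc17 was higher at 1.97, but at 0.85 without its top cells and -0.32 without M1 and M2 cells. Dnajc27 was higher at 1.44, but at 0.07 by cluster identity and at 1.28, no longer called, without its top cells, and Hspa4 at 1.17, but at 0.81 without the cells with blood markers and 0.75 in range 2. The leaving out of M1 and M2 was added after the data were seen.

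None of the 12 heat-inducible members was called in OPr. Members had a median of -0.08, and the heat-inducible ones of 0.33, but -1.91 in range 1, with 1 of 12 above 0, and 0.98 in range 2, with 12 of 12. In range 1 they summed to 5589 CPM in young and 1309.6 in old cells, and in range 2 to 2582 and 6340.1. The direction thus depended on the range, each with few old cells (10 and 19). Mitochondrial members had a median of -0.80, or -0.98 in range 1 and -0.44 in range 2, with 4 of 8 called lower, against 16.5% of all genes, of which Dnajc11 and Dnaja3 were no longer called without M1 and M2 cells. Pericyte and smooth muscle markers (6, led by Acta2, none at 0 in old OPr) summed to 770.1 CPM in young and 2131 in old OPr. The part of this, of the MSC-L markers and of the blood cells in the values was not tested.

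In mOPr, 26 cells of each age were compared. Old cells had less Dnajc11, Hspb8, Hspa2 and Dnajb9 and nearly none of Hspb11 and Dnajc27, and more Dnajc16, Dnajc7 and Dnaja1. Of 56 members tested, 4 were called higher, against 18.1% of all genes, and 8 lower, against 16.2%. Without the top cells the split was 4 higher and 11 lower, against 14.7% and 19.9% of all genes, and without M1 and M2 cells 3 higher and 12 lower, against 11.002% and 28.5%. Size factors moved the all-gene median from 0.11 to -0.05 and the split from 4 higher and 8 lower to 2 and 9. Of all genes, 15.9% were then called higher and 18.3% lower.

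Hspb11 was lower at -4.49, with a single count in old cells, and Dnajc27 at -4.17, no longer called without its top cells, at -3.91. Dnajc11 was lower at -3.14, 9.49 (7.97 to 11.4)-fold, with both ranges in the same direction. Dnajc6 was lower at -2.86, but at -0.16 in range 2, Hspa2 at -1.73, Dnajb9 at -1.60 and Dnajb14 at -1.51. Hspb8 was lower at -2.74, and 1 old cell held 97.1% of what was left, so the value was -5.61 without the top cells. Dnajc7 was higher at 1.50, 2.87 (2.64 to 3.12)-fold, but at 0.33 in range 1, where Dnaja1 and Dnajc14 were at 0.04 and 0.15. Dnajc16 was higher at 2.72, but at -1.74 without M1 and M2 cells and 0.55 in range 2. Dnaja1 was higher at 1.10, but at 0.20 without those cells and 0.93 with size factors. Dnajc14 was higher at 1.04, but at 0.94 without its top cells.

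The median of members was 0.17, which turned to -0.17 without the top cells, and that of the heat-inducible ones was 0.44, with -0.86 in range 1 and 1.06 in range 2, so again no single direction held. Young mOPr had 16 of 26 cells in clusters of MSC-S identity, where Hspb8 is high, and old mOPr had 0 of 26, which allows up to 11.5%. Pericyte and smooth muscle markers, led by Acta2 in old cells, with 1 of 6 at 0 in young ones, summed to 506 CPM in young and 1969 in old mOPr. The part of cell composition in the age values was not tested.

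AEC was the only population that had to keep its direction in 3 ranges to be called with age, and in range 1 alone 19 of 54 members passed 2-fold, against 39.7% of all genes. Over all ranges, of 60 members tested, 1 was called higher in old cells, against 3.99% of all genes, and 4 lower, against 6.01%. Dnajb5 was higher at 1.82, 3.77 (3.36 to 4.25)-fold, but at 0.84 in range 3, and no longer called without cells of E1 and E2, at 1.54. Hspb2 was lower at -1.72, but at -0.52 without the 5 young and 3 old cells of the clusters E1 and E2. Dnajb13 was lower at -1.34, Dnajc17 at -1.23 and Dnaja4 at -1.15, all at low levels. By cluster identity the split was 1 higher and 0 lower, against 6.35% and 3.63% of all genes, and Hspb2 stood at -0.69, Dnajb13 at -0.45 and Dnaja4 at -0.51. In range 2 alone Hspb2 was at -0.82, Dnajb13 at -0.44, Dnajc17 at -0.77 and Dnaja4 at -0.60. For members the median was -0.05 and for the heat-inducible ones 0.15, with none of 12 called, against -0.03 over all genes, and the heat-inducible sum was 4137, 6236 and 5683 CPM in young and 6362, 6294 and 4363 in old cells of ranges 1, 2 and 3. Old cells were thus higher in range 1, alike in range 2 and lower in range 3.

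In SEC, old cells had more of several HSP70 members. Of 58 members tested, 8 were called higher, against 13.1% of all genes, and 3 lower, against 7.56%. SEC came from a single library range, so the direction of these calls was not checked in another. Without cells of E3 and E4 the split was 5 higher and 5 lower, against 12.1% and 7.86% of all genes. With size factors the split of 8 higher and 3 lower became 5 and 4, against 11.8% and 8.56% of all genes. Hspa4l was higher at 3.57, 45.8 (21.96 to 115)-fold, and Hspa12b at 1.98, 4.09 (3.70 to 4.54)-fold. Hspa1a was higher at 1.66 and Hspa1b at 1.32, but at 0.72 and 0.75 without cells of E3 and E4, an alternative added after the data were seen, and at 0.12 and 0.23 by cluster identity. Since Hspa1b is a guide gene of the authors' endothelial clusters, these settings are not independent of its level. Dnajc16 was higher at 1.24. Hspb1, Hspa12a and another member were higher at 1.04, 1.02 and 1.05, or 0.81, 0.16 and 0.98 without their top cells. Dnajb12 was lower at -1.14, Dnajc15 at -1.07 and Dnajc11 at -1.02, the last at -0.64 without clusters E1 and E2. By cluster identity Dnajc15 was at -0.90 and Dnajc11 at -0.56.

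Members had a median of 0.05 and the heat-inducible ones of 0.06, which size factors turned to -0.03 and -0.02, against 0.05 and -0.02 over all genes. HSP70 and HSP110 members had a median of 0.75, with 5 of 10 called higher. The 5 arteriolar markers, led by Ly6a and none at 0, summed to 313 CPM in young and 1015 in old SEC, and their part in the age values was not tested. The 8 old cells in the AEC clusters had heat-inducible members at 3077 CPM (95% interval 3006 to 3149). Cells in the SEC cluster E7 had 1896 CPM in 59 young and 1969 in 44 old cells, or 511 and 599 without Hsp90ab1 and Hspa8.

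Library-number ranges 2 and 1 were set against each other within the 10 groups that had both, taking the median ratio over the groups. Of 65 members tested, 3 were called higher in range 2, against 3.55% of all genes, and 1 lower, against 1.56%. Hsph1 was higher in range 2 at 1.51, in 9 of 10 groups, but at 0.98, no longer called, by cluster identity. Hspa1b was higher at 1.26, in 7 of 10, and Dnajb5 at 1.22, in 7 of 10, but without the top cells these were 0.97 and 0.43, and by cluster identity Hspa1b was at 0.53. Dnajc9 was lower at -1.49, and higher in 2 of 10. Over members the median was 0.06, and over the heat-inducible ones 0.42, against 0.00 over all genes. Of the called members, Hsph1 and Hspa1b belong to the heat-inducible list.

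**Figure D3:**
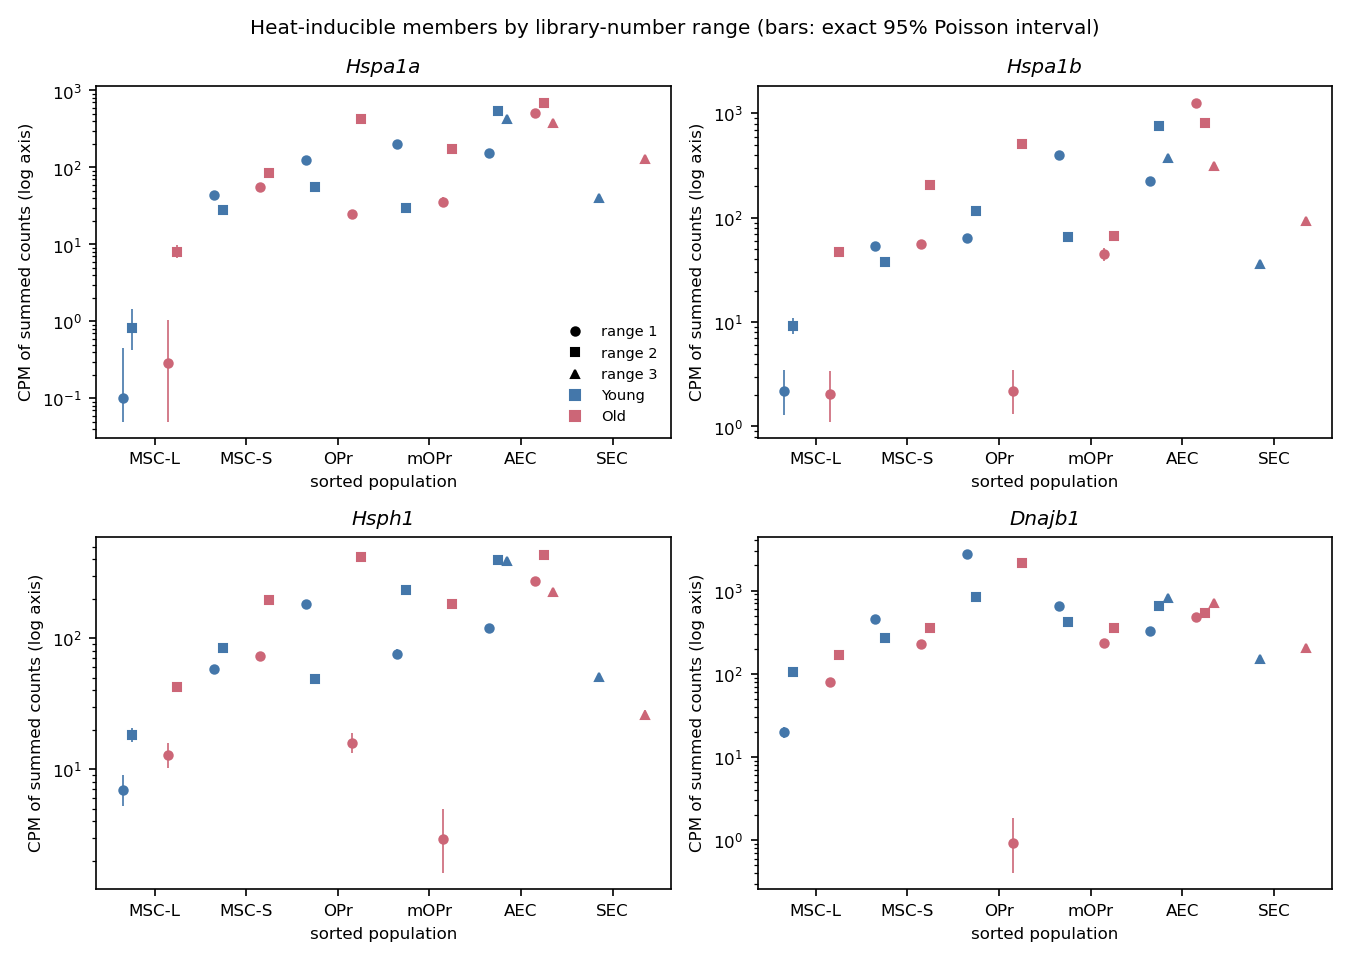
CPM of Hspa1a, Hspa1b, Hsph1 and Dnajb1 by library-number range for young and old cells of each population (log axis; bars are exact 95% Poisson intervals; levels under 0.1 CPM are drawn at 0.1). Hspa1a in young MSC-L of range 1 had no count in 20 cells.

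In 10 of 12 groups, heat-inducible members went with immediate early genes more than with the ER members across cells, the others being young SEC, with rho of 0.06 and 0.36, and old OPr, with 0.55 and 0.63. Spearman's rho between the sums had a median of 0.52 over the 12 groups of 26 to 84 cells (0.06 to 0.79). With the ER sum it was 0.25 (-0.12 to 0.63) and with total counts 0.21 (-0.15 to 0.46). All of these come from the same cells and share their depth. Hspa1a and Hspa1b had a median rho of 0.64 in the 6 groups where both were detected in at least 50% of cells, and Hsp90aa1 and Dnaja1 of 0.38 in 12 groups. Pairs of other members were mostly weak, with a median of 0.20 within the heat-inducible list and 0.07 within the ER list, which in sparse counts is no finding.

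Chaperone and ER stress genes outside the members were read beside them. The cytosolic chaperonin TRiC, whose 8 subunits summed to between 1001 and 1311 CPM, had no subunit called between populations and 1 called in each direction with age, in mOPr. There 18.1% of all genes were called higher and 16.2% lower. The 20 ER stress genes outside the members summed to 4391 and 4468 CPM in young and old MSC-L, 4312 and 4649.9 in MSC-S, 5266 and 3785 in OPr, 4919 and 3946 in mOPr, 3471 and 3176 in AEC and 5009 and 4547 in SEC. In old OPr 4 were called lower, against 16.5% of all genes, and 1 higher, against 18.5%. In old mOPr 2 were called lower, against 16.2% of all genes, and at most 3 were called in any other comparison. Of the HSF1 pathway genes outside the members, 2 of 23 were called higher and 6 lower in old MSC-L, against 10.6% and 8.72% of all genes. Their median there was -0.30 over all ranges, against 0.87 for the heat-inducible members. The latter had 0.20 in range 1 and 0.92 in range 2, and no range values are given for the pathway genes. With age 0 of 24 were called higher and 1 lower in MSC-S, 0 and 2 of 24 in OPr, 1 and 2 of 24 in mOPr, 0 and 0 of 23 in AEC and 0 and 2 of 22 in SEC. Of all genes, 6.41% were called higher and 8.18% lower in MSC-S and 18.5% and 16.5% in OPr. The shares were 18.1% and 16.2% in mOPr, 3.99% and 6.01% in AEC and 13.1% and 7.56% in SEC.

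Promoters were read from RefSeq sequence (GRCm38.p6, 250 bases before to 50 after each start), where 58 of the 72 members had an entry. The members without one were Dnajc11, Dnajc12, Dnajc18, Dnajc2, Dnajc22, Dnajc30, Dnajc5, Dnajc5b, Hsp90aa1, Hsp90ab1, Hspa13, Hspa8, Hspa9 and Hspb2. The ER stress element, CCAAT and CCACG with 9 bases between them, searched on both strands, was found in 0.119% of 32851 promoters. Among members it was in Hspa5, Hsp90b1 and Dnajc3, 3 of the 9 ER members with an entry. The heat shock element, 3 inverted NGAAN units, was found in 0.597% of promoters and, among members, in Dnajb6, Hspd1, Hspe1 and Hsph1, the last past its start. The Hspd1 and Hspe1 matches are the same bases, before the start of both genes, so their stretch is printed once. Matches before the start are given for the ER members, for Hspe1 with Hspd1 and for Dnajb6, since these motifs belong to the ER stress and heat shock responses, with capitals marking the motif. They lie at chr2:34772020-34772048 on the plus strand (Hspa5, inside exon 1 of that gene by GENCODE M21), chr10:86705633-86705661 and chr10:86705528-86705556 on the minus strand (Hsp90b1, outside exons), chr14:118937822-118937850 on the plus strand (Dnajc3, outside exons), chr1:55088053-55088082 on the plus strand (Hspe1, inside exon 1 of Hspd1 on the other strand) and chr5:29735846-29735870 on the plus strand (Dnajb6, inside exon 1 of Dnajb6 and, on the other strand, of Gm5129). A match is a run of letters and says nothing of binding.
Hspa5: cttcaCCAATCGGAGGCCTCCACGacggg
Hsp90b1 (upstream match): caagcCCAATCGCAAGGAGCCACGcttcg
Hsp90b1 (downstream match): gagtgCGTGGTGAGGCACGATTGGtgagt
Dnajc3: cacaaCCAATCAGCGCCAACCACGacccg
Hspe1 and Hspd1: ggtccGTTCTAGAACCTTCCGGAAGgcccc
Dnajb6: ctccgAGAATCTTCCGGAACgctag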

How the data were processed

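Single stromal cells of 6 sorted populations from young and old mice were sequenced by a plate method without molecular identifiers. The authors aligned the reads with GSNAP (2015-09-29) to GRCm38.p4, assigned them to genes with HTSeq, ignoring strand, and deposited the counts of 661 cells without normalization. Of 46078 table entries, those with a repeated symbol were summed, which left 45808 symbols. CPM were computed over 45771 nuclear genes from counts summed by group. Median counts per cell ran from 306315 to 781968 between groups, so 3 counts over a group, the limit that a count of 0 allows, stood for at most 0.240 CPM. No test was run, since no mouse is named. The members and lists were chosen with earlier results of these data known. Named members were the heat-inducible list, the most abundant member of each role and up to 5 called members per direction in each comparison, and Dnajb9 and Dnajb14 were added after their values were seen. Alternatives were the mean of CPM over cells, size factors, a pseudocount of 0.1 CPM, no filter, thinning, single ranges, cluster identity, and leaving out top cells, cells with blood markers or clusters. On simulated counts with Poisson noise only, 200 genes that were not rare were set apart past 2-fold. All 200 were called in the right direction. The draws had no other spread between cells, so they check the code and not the calls of rare members. Motifs were sought in RefSeq promoters and neighbours in GENCODE M21. The software was scipy 1.17.1 and matplotlib 3.10.9 with pandas 2.3.3, numpy 2.4.6 and Python 3.11.15. The -ps symbols were left out. Levels and population values of the HSF1 pathway list are not reported here.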

Additional observations from a re-analysis of the deposited data

Results flagged for a closer look

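Several members were called with age in opposite directions in different populations, and these differences between populations were not tested. Old cells had more Dnajb14 in MSC-L (1.19) and less in mOPr (-1.51). Dnajc17 was higher in old MSC-L (1.70) and OPr (1.97) and lower in old AEC (-1.23). Dnajc27 was higher in old MSC-S (2.21) and OPr (1.44) and lower in old mOPr (-4.17). Hspa12a was higher in old SEC (1.02) and lower in old MSC-L (-1.44), Hspb2 higher in old MSC-S (3.04) and lower in old AEC (-1.72), and Hspb7 higher in old MSC-L (3.78) and lower in old MSC-S (-1.54). All are rare genes apart from Dnajb14, and Dnajc17 in OPr, Hspa12a in both populations and Hspb7 in MSC-L lost their call without the top cells, at 0.85 for Dnajc17, 0.16 and -0.35 for Hspa12a in SEC and MSC-L and 0.79 for Hspb7. Dnajc27 lost it in all 3 populations while its values stayed at 1.99 in MSC-S, 1.28 in OPr and -3.91 in mOPr. Other settings moved some values too. By cluster identity Hspb2 in MSC-S was at 0.06, Dnajc27 in OPr at 0.07 and Hspa12a in MSC-L at 0.18. Without E1 and E2 cells Hspb2 in AEC was at -0.52, and without M1 and M2 cells Dnajc17 in OPr was at -0.32.

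The table also holds symbols of pseudogenes that the members leave out. Over all 661 cells, Dnaja1-ps had 25 counts, Dnajc19-ps 2969, Hspa9-ps1 3265, Hspd1-ps3 5366, Hspd1-ps4 56, Hspe1-ps2 86, Hspe1-ps3 107 and Hspe1-ps5 219. Reads of the parent genes with several matches were dropped, and how many of these counts came from the parents was not tested.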

How the results depend on the processing

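Of 111 alternative values for the medians of members, 102 stayed in the 95% interval of the main median (order statistics over members) and 9 left it. That does not fix the sign, as 19 of the 102 lay on the other side of 0 from the main value. Of 111 for numbers of members called 92 kept within 1.5 times and 19 did not, and of 853 for single named members 684 kept their call, 160 lost it and 9 turned direction. With the mean over cells, the mOPr age median turned from 0.17 to -0.01, with thinning to -0.16 and without the top cells to -0.17, and without cells with blood markers the OPr one from -0.08 to 0.02.

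In brackets after each number called stand the shares of members and of all genes called under that setting. Thinning gave fewer calls with age, 6 (13.3% and 17.8%) in place of 13 in MSC-L, 4 (7.41% and 11.6%) in place of 8 in MSC-S, 6 (12.2% and 34.5%) in place of 12 in OPr and 2 (3.64% and 9.35%) in place of 5 in AEC, with fewer counts by its construction. In library range 1 alone the median was 0.0421 in place of 0.17 in MSC-L, -0.78 in place of -0.08 in OPr, -0.56 in place of 0.17 in mOPr and -0.25 in place of 0.06 for OPr over MSC-S, and the number called was 20 (37.7% and 34.4%) in MSC-S, 29 (55.8% and 57.6%) in OPr, 19 (35.2% and 39.7%) in AEC and 4 (7.02% and 20.7%) in place of 13 for OPr over MSC-S. Dnajb1 in OPr over MSC-S turned to -2.15 and Hspb6 in AEC over MSC-S to 0.22. In range 2 alone the OPr median was 0.26, and 24 (41.4% and 49.6%) members were called in OPr, 20 (46.5% and 53.7%) in place of 12 in mOPr and 9 (15.8% and 29.4%) in AEC. In range 3 alone the AEC median was -0.20 in place of -0.05, with 13 (25% and 36.8%) called. With age, a single range needs no shared direction, so more members, and more of all genes, can be called.

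With cluster identity in place of the sort, 5 (8.20% and 16.7%) members were called in MSC-S, 1 (1.72% and 9.98%) in AEC, 7 (12.5% and 21.8%) in place of 11 in SEC and 6 (9.38% and 12.7%) in OPr over MSC-S. Hspa12a turned to 0.18 with age in MSC-L and 0.36 in OPr over MSC-S, Hspa13 to -0.90 with age in OPr and Hspb6 to 0.55 in SEC over AEC. No cluster has mOPr identity, so that value was not run. Without M1 and M2 cells, an alternative added after the data were seen, as was leaving out E3 and E4, Dnajc17 turned to -0.32 and Hspa13 to -1.13 in OPr and Dnajc16 to -1.74 in mOPr. Without E1 and E2 cells, 3 (5.08% and 10.4%) were called in AEC. Without the top cells, 4 (6.56% and 12.8%) were called in MSC-S, and the median was -0.26 for OPr over MSC-S and 0.27 in place of 0.06 for range 2 over range 1. Size factors gave a median of 0.0751 in place of 0.38 for AEC over MSC-S, and a pseudocount of 0.1 CPM gave 10 (15.4% and 14.3%) calls in place of 4 between ranges. Apart from the numbers called with age after thinning and in single ranges, the cause was not tested.

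No paired analysis was possible because the number at the end of a label counts the cells of a group and names no mouse. Each age of a population is 1 sample, so variation between mice is unknown. Location and digestion differ together, as do age and cell mixture in OPr and mOPr. SEC came from 1 library range. Copies that share reads, such as Hspa1a and Hspa1b, are uncertain, and depth limits the calls of rare members.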
